A study of Homo sapiens with 4 samples.

Results

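The cyclin-dependent kinase (CDK) inhibitor family was examined in RNA-Seq data from SK-MEL-28 cells, an established human melanoma cell line, in which MYC could be induced. Its members were chosen by gene symbol as the 8 genes CDKN1A, CDKN1B, CDKN1C, CDKN2A, CDKN2B, CDKN2C, CDKN2D and CDKN3, of 25268 gene symbols in the deposited table. The choice was made with the fall of CDKN1A in these libraries already known, so the changes of the members are given as a description. Both lines had been transduced with a lentivirus and selected with geneticin, and the library labels give G418 in the medium of all of them. The vector line carried an empty pTRIPZ vector, and the MYC-inducible line carried a MYC gene under a Tet-inducible promoter. Each line was sequenced without doxycycline (Dox), a tetracycline drug that switches such a promoter on, and after 54 h with Dox, which was used at 0.5 μg/ml. MYC-inducible cells with Dox are called induced. There were 4 libraries, 1 for each condition, so no difference has a replicate check, no test of the conditions was possible and no p-value is given. The sources used here do not say whether the lines were clones.

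Progression through the cell cycle is driven by CDKs bound to cyclins, and the CDK inhibitors hold these kinases back. The CIP/KIP proteins, encoded by CDKN1A (p21), CDKN1B (p27) and CDKN1C (p57), bind complexes of cyclins with CDKs, among them those of CDK2. The INK4 proteins, encoded by CDKN2A (p16), CDKN2B (p15), CDKN2C (p18) and CDKN2D (p19), bind CDK4 and CDK6 and keep them from the D cyclins. CDKN3 encodes KAP, a phosphatase that removes the activating phosphate of CDK2 and is not a member of either inhibitor group. CDKN2A also encodes ARF from another reading frame, and it is among the genes most often lost in melanoma. MYC is known to hold down CDKN1A and CDKN2B through its partner MIZ1, which is encoded by ZBTB17.

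The values were FPKM (fragments per kilobase of transcript, scaled to the size of the library). A change is the difference of log2(FPKM + 0.1) between a pair of libraries, and a gene is said to have risen or fallen where it changed at least 1.5-fold on this scale. Only genes whose 4 values averaged 1 FPKM or more were counted, which left 11147, all 8 members among them. The libraries held approximately 34900000 to 41900000 fragments, as estimated from the smallest values in the table. Counting errors given below follow from this depth and from the annotated transcript length. They leave out all variation between cultures. All 8 melanocyte markers examined were above 1 FPKM in every library, with a summed level of 8433 to 8578 FPKM in 3 libraries and 4666 FPKM in induced cells. With Dox in the MYC-inducible line 5 of the 8 fell, beside 8.85% of all genes. Between the lines with Dox, 3 of the 8 were at least 1.5-fold lower in the MYC-inducible line, beside 8.62% of all genes. Of 9 markers of other cell types, 8 were under 0.2 FPKM in all libraries, and 1 of these, KRT5, was listed at 0 throughout. The remaining marker, EPCAM, was at 0.658, 0.769 and 0.726 FPKM in those 3 libraries and at 2.71 FPKM in induced cells. The part of these marker shifts in the results below was not tested. In bulk RNA, fewer cells that express a gene and less RNA per cell cannot be told apart.

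MYC itself was at 58.3 FPKM in untreated and 54.8 FPKM in Dox-treated vector cells. In MYC-inducible cells it was at 76.5 FPKM untreated and 87.1 FPKM after Dox. Its log2 change was therefore 0.19 upon induction, short of 1.5-fold, and 0.67 between the Dox-treated lines. The sources used here do not say whether transcripts of the introduced gene are fully counted in this row. By other measures, the paper reports induction in MYC-inducible SK-MEL-28 cells given Dox. These were a rise of MYC mRNA by RT-PCR and a higher activity of a reporter of MYC. Libraries are called by their labels throughout.

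The family spanned a wide range of levels, and its order was nearly the same in the 3 libraries without MYC induction. CDKN2A was highest, at 132 FPKM in untreated vector cells, 156 FPKM in Dox-treated vector cells and 148 FPKM in untreated MYC-inducible cells. CDKN3 followed at 53.7, 56.1 and 54.7 FPKM in the same order of libraries. Both lay well above the other members, at percentiles 93.8 and 84.3 of the mean levels of all 11147 genes. CDKN2D (30.3, 28.5 and 28.1 FPKM) and CDKN2C (27.7, 25.8 and 28.4 FPKM) came next. Their ranges overlapped, so these 2 neighbours cannot be ordered. The same held for CDKN1A (12.5, 13.5 and 13.7 FPKM) and CDKN1B (11.7, 11.3 and 12.5 FPKM). CDKN2B was at 4.01, 4.39 and 4.11 FPKM, and CDKN1C, the lowest, was at 1.91, 1.76 and 2.38 FPKM. Across these 3 libraries the highest value of a member was 1.04 (CDKN3) to 1.35 (CDKN1C) times its lowest.

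**Figure D1:**
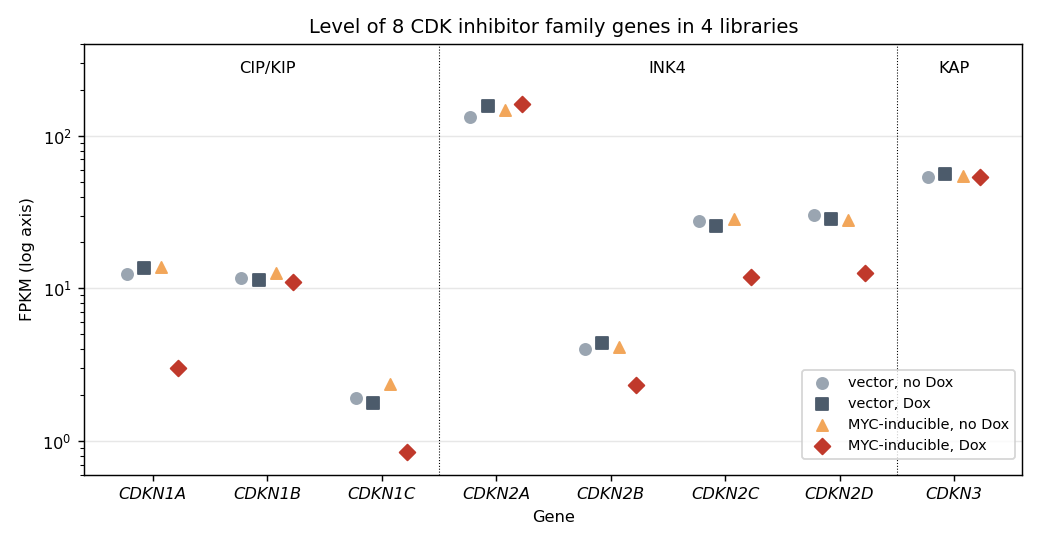
FPKM (log axis) of each member in the 4 libraries, with 1 point per library and dotted lines between the CIP/KIP genes, the INK4 genes and CDKN3 (KAP). The points of the induced library lie apart from the other 3 for CDKN1A, CDKN1C, CDKN2B, CDKN2C and CDKN2D, and near them for CDKN1B, CDKN2A and CDKN3.

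When MYC-inducible cells were given Dox, 5 of the 8 members fell and 0 rose. Over all 11147 genes the share that fell was 8.85% and the share that rose was 5.9%. Because a fall in this comparison was known when the family was picked, nothing is read from the member count. The members that fell came from both groups, CDKN1A and CDKN1C of CIP/KIP and CDKN2B, CDKN2C and CDKN2D of INK4. Since 4 of these have a promoter in the RefSeq table, the sequence before their start sites is shown, together with that of CDKN1B as a member that neither rose nor fell. The windows were RefSeq promoters matched to GRCh37, of 250 bases before the start nearest to that of the canonical transcript. Other annotated transcripts of CDKN1A, CDKN1B and CDKN2C start further upstream, so these 3 windows lie inside the annotated gene. Each window is shown only as far as it overlaps no annotated exon of its gene, which left 246 bases for CDKN1A (chr6:36646241-36646486, plus strand), 250 for CDKN2B (chr9:22009305-22009554, minus strand), 250 for CDKN2C (chr1:51435667-51435916, plus strand), 170 for CDKN2D (chr19:10679736-10679905, minus strand) and 250 for CDKN1B (chr12:12870052-12870301, plus strand). Capitals mark the GC box GGGCGG, the E-box CACGTG, the CCAAT box CCAAT and the TATA box TATAAA on either strand, and each sequence runs 5′ to 3′ along the strand of its gene.
CDKN1A: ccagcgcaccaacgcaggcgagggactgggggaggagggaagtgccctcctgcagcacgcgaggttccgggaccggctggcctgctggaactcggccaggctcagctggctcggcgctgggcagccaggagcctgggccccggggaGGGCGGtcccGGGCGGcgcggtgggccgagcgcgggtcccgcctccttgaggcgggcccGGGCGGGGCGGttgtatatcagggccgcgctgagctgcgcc
CDKN2B: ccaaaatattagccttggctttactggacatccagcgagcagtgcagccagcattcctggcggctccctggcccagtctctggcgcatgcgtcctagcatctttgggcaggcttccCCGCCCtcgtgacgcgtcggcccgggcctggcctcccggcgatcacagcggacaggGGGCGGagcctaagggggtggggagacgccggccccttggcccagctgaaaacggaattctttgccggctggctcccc
CDKN2C: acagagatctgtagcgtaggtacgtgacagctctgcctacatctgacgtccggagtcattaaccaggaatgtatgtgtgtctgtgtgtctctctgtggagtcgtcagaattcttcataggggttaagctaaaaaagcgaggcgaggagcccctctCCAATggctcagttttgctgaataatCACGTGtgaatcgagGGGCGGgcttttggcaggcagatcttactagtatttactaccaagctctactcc
CDKN2D: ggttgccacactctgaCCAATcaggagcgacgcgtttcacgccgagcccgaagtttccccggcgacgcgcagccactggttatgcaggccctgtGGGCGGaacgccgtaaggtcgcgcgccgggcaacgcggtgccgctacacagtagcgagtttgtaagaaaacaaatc
CDKN1B: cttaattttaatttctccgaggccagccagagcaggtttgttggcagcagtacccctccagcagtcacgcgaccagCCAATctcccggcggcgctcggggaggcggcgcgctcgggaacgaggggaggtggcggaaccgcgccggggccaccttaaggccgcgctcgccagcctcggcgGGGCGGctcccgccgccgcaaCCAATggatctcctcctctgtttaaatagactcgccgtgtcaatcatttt

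The GC box is the letters that SP1 family factors bind, and the E-box is the letters that MYC with MAX binds. Of the 7 members with a window, 6 held a GC box (42.6% of 35116 windows of this length in the table), 4 a CCAAT box (32.0%), 1 an E-box (6.34%) and 0 a TATA box (10.7%). The window of CDKN1A held 4 GC boxes, the last 2 of which share a base, and 76.4% of its bases were G or C, against a median of 58% over all windows. The single E-box was that of CDKN2C, whose window had a GC content of 48.8%. The table lists 3 starts for CDKN2C, and its counts depend on the one taken, since one of the windows not used held 5 GC boxes and no E-box (GC content 77.2%) and the other held 1 E-box and no GC box (45.6%). CDKN2B and the whole CDKN2D window held 2 GC boxes each, and CDKN1B, which did not fall, held 1. CDKN3 held 2 CCAAT boxes and no GC box, and the p16 start of CDKN2A held 1 GC box. A match is a description of letters and does not show that a factor binds there.

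CDKN1A, whose product p21 arrests cells in G1, moved furthest of the family. It lies on chromosome 6 of GRCh37 from 36644237 to 36655114. It had 12.5 and 13.5 FPKM in untreated and Dox-treated vector cells, 13.7 FPKM in untreated MYC-inducible cells and 3.03 FPKM in induced ones, 4.54-fold lower than before induction. The log2 change was -2.14, with an approximate 95% counting interval from -2.34 to -1.95. CDKN1A was even over the 3 libraries without MYC induction, and the induced library stood at 22.9% of their mean. Of all 11147 genes, 17 had a change at least as low, CDKN1A included. DINOL, a noncoding RNA on the other strand, overlaps CDKN1A in the annotation, and whether the counting used the strand of the reads is not given in the sources used here.

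CDKN1C, an imprinted gene of the CIP/KIP group on chromosome 11 from 2904443 to 2907005, was at 2.38 FPKM before and 0.842 FPKM after induction (log2 change -1.39). Its counting interval was the widest of the family, from -1.82 to -0.97, and the lower value rested on approximately 58.5 fragments. It was also the least even member without MYC induction, with a log2 difference of 0.30 between the untreated lines. The induced library still lay below each of the other libraries. CDKN1B, whose product p27 is mainly controlled through its destruction, lies on chromosome 12 from 12838432 to 12875303. Its level was 12.5 FPKM before and 11.0 FPKM after induction, and the log2 change of -0.18 had a counting interval from -0.30 to -0.06. This was the lowest of its 4 values, yet its distance to the vector line with Dox, at 11.3 FPKM, was a log2 difference of -0.03. GPR19 overlaps CDKN1B on the other strand, at 1.76 FPKM before and 1.65 FPKM after induction. Summed over the 3 CIP/KIP genes, the level was 28.6 FPKM before and 14.9 FPKM after induction, and 26.0 and 26.6 FPKM in untreated and Dox-treated vector cells.

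CDKN2C and CDKN2D, the INK4 genes on chromosome 1 (51426417 to 51440306) and chromosome 19 (10677136 to 10679735), moved by nearly the same amount. Induction took CDKN2C from 28.4 to 11.9 FPKM, and its log2 change was -1.25 (counting interval -1.40 to -1.09). ENSG00000290102 overlaps CDKN2C on the other strand in the annotation, and the part of shared reads in the value of CDKN2C was not tested. CDKN2D dropped from 28.1 to 12.5 FPKM, and its log2 change was -1.16 (counting interval -1.29 to -1.03). The intervals overlap, so the 2 falls cannot be ordered. Both genes stood at a little over 43% of the mean of the other 3 libraries, at 43.6% for CDKN2C and 43.2% for CDKN2D, and for each gene the 3 other values lay far above that of induced cells. CDKN2B, on chromosome 9 from 22002902 to 22009304, fell less, from 4.11 to 2.31 FPKM. Its log2 change was -0.80 with a counting interval from -0.99 to -0.62. Of the members that fell it lay nearest to the 1.5-fold limit, and CDKN1B lay nearest on the other side.

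CDKN2A, which lies next to CDKN2B on chromosome 9 from 21967751 to 21995300, did not take part in the fall. It was at 148 FPKM before and 162 FPKM after induction, and the log2 change of 0.13 had a counting interval from 0.08 to 0.18. The vector line had a log2 change of 0.24 with Dox, so the value of the induced library, the highest of the 4, was only 0.06 above that of the vector line with Dox on the log2 scale. FPKM values per gene do not separate p16 from ARF. CDKN2B-AS1, a noncoding RNA which overlaps CDKN2A and CDKN2B on the other strand, was at 0.509 to 0.658 FPKM in the 4 libraries. ENSG00000264545 overlaps both genes on that strand as well, and the part of shared reads was not tested. The other neighbours in the region, MTAP, DMRTA1 and KLHL9, had log2 changes of 0.25, 0.11 and -0.30 upon induction, below 1.5-fold, and IFNE was listed at 0 in all libraries. CDKN3, on chromosome 14 from 54863567 to 54886936, stood at 54.7 FPKM before and 53.9 FPKM after induction. The counting interval of its log2 change of -0.02 ran from -0.11 to 0.07 and held 0, and all of its 4 values lay between 53.7 and 56.1 FPKM.

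The summed level of the INK4 genes, most of it CDKN2A, moved little while its make-up shifted. The 4 genes summed to 209 FPKM before and 189 FPKM after induction, which was 9.46% lower. Without CDKN2A the sum went from 60.6 to 26.7 FPKM. CDKN2A made up 71.0% of the INK4 sum before and 85.9% after induction, and 68.1% and 72.7% in untreated and Dox-treated vector cells. The CDKN2A value joins p16 with ARF, so the sums and shares with CDKN2A hold ARF transcripts to an unknown extent. Their kinases CDK4 and CDK6 together had 154 FPKM before and 163 FPKM after induction.

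**Figure D2:**
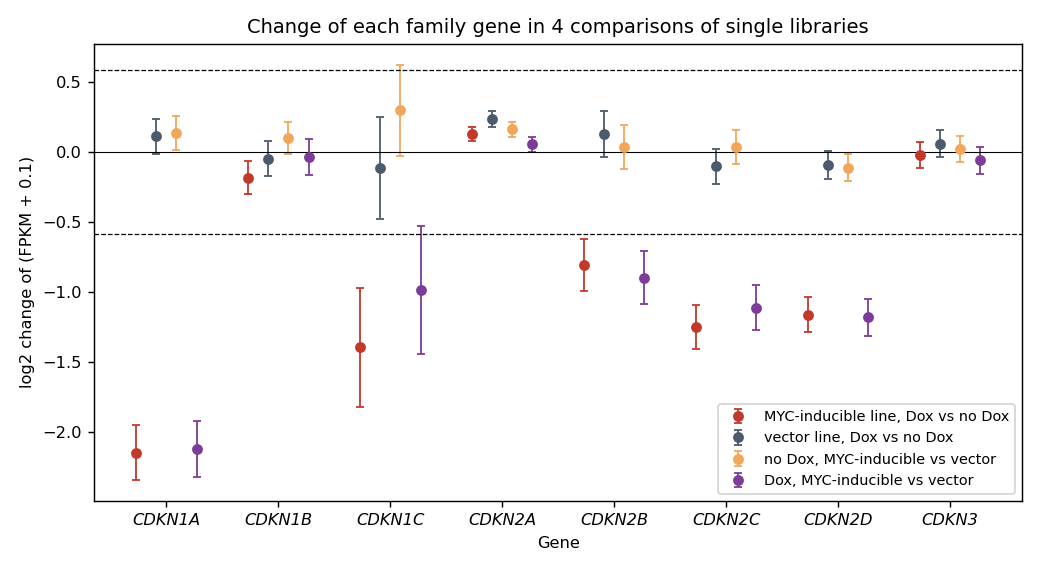
Change of log2(FPKM + 0.1) of each member in the 4 comparisons of single libraries. Bars are approximate 95% counting intervals, which leave out variation between cultures, and dashed lines mark 1.5-fold. Only the 2 comparisons that hold the induced library pass the lower line, for CDKN1A, CDKN1C, CDKN2B, CDKN2C and CDKN2D.

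The vector line was compared with and without Dox to see how the members varied where no MYC gene had been introduced. None of the 8 members rose or fell there, beside 0.709% of all genes that rose and 0.44% that fell. The largest change of a member was that of CDKN2A, 0.24, with a counting interval from 0.18 to 0.29, and 4.53% of all genes had a change at least as high. The other changes lay between -0.11 (CDKN1C) and 0.13 (CDKN2B). CDKN1A had a log2 change of 0.11, with an interval from -0.01 to 0.24. The median change of the 8 members was 0.01 in the vector line, where the median of all genes was also 0.01. It was -0.98 in the MYC-inducible line, where the median of all genes was -0.03. Nothing is read from the latter difference, since the fall of CDKN1A was known when the family was picked.

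The untreated lines were compared to see how far they differed before induction. Again 0 members rose or fell, beside 0.592% of all genes that were higher in the MYC-inducible line and 0.287% that were lower. CDKN1C (0.30), CDKN2A (0.16), CDKN1A (0.14) and CDKN1B (0.10) were higher in the MYC-inducible line on the log2 scale, and CDKN2D (-0.11) was lower. CDKN2B, CDKN2C and CDKN3 differed by at most 0.04. MYC was higher by 0.39 in the same comparison.

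Between the lines with Dox, 5 members were at least 1.5-fold lower in the MYC-inducible line and 0 were higher, beside 8.62% and 6.5% of all genes. This comparison and the one within MYC-inducible cells share the induced library, so it is no independent repeat. The log2 differences were -2.12 for CDKN1A, -1.18 for CDKN2D, -1.11 for CDKN2C, -0.98 for CDKN1C and -0.90 for CDKN2B. They were 0.06 for CDKN2A, -0.03 for CDKN1B and -0.06 for CDKN3. In the induced library 5 of all 8 members were at least 1.5-fold below the lowest of the other 3 libraries, beside 6.41% of all genes. These were the same 5, already called lower in both comparisons that hold the induced library. Their count here was therefore nearly fixed in advance, and nothing is read from it.

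**Figure D3:**
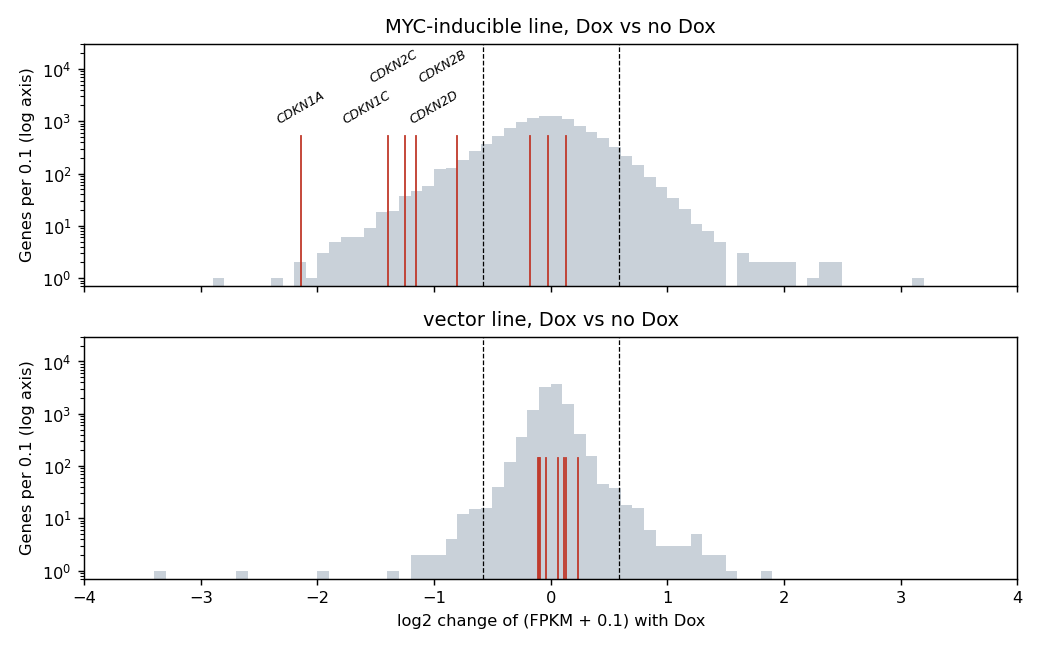
Number of genes (log axis) by change of log2(FPKM + 0.1) with Dox in bins of 0.1, for the MYC-inducible line (top) and the vector line (bottom), among 11147 genes. Red lines are the 8 members, dashed lines mark 1.5-fold, and genes beyond the axis are left out (14 on the left and 21 on the right at the top, 7 and 11 at the bottom). The 5 named members lie in the left tail at the top, and all 8 lie between -0.11 and 0.24 at the bottom.

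Genes whose profile over the 4 libraries was most like that of CDKN1A were sought among 7468 other genes averaging 5 FPKM or more. Likeness was the distance between log2(FPKM + 0.1) profiles, each centred on its own mean, which joins 4 single libraries and is a description. The 5 nearest were CTSG (distance 0.24), LGALS1 (0.27), FCRLA (0.44), CEMIP (0.45) and CST1 (0.46), while the median distance of all genes was 1.82. CTSG, which encodes the protease cathepsin G, dropped from 20.7 to 5.48 FPKM upon induction. LGALS1, which encodes galectin-1, dropped from 4843 to 1414 FPKM, and CEMIP, which encodes a hyaluronan-binding protein, from 6.16 to 1.95 FPKM. FCRLA, a gene of the Fc receptor-like family, dropped from 33.7 to 8.35 FPKM, and CST1, a secreted cystatin, from 85.4 to 29.0 FPKM. Within the family, CDKN2D and CDKN2C were nearest to CDKN1A, both at 0.79, and CDKN1C followed at 0.85 and CDKN2B at 1.10. Of the 7468 other genes, 42 were nearer than CDKN2D, 42 nearer than CDKN2C, 56 nearer than CDKN1C and 212 nearer than CDKN2B. CDKN1C and CDKN2B averaged 1.72 and 3.70 FPKM, under the limit of 5 FPKM set for the other genes. CDKN1B, CDKN3 and CDKN2A were at 1.73, 1.79 and 1.95, near the median of all genes.

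**Figure D4:**
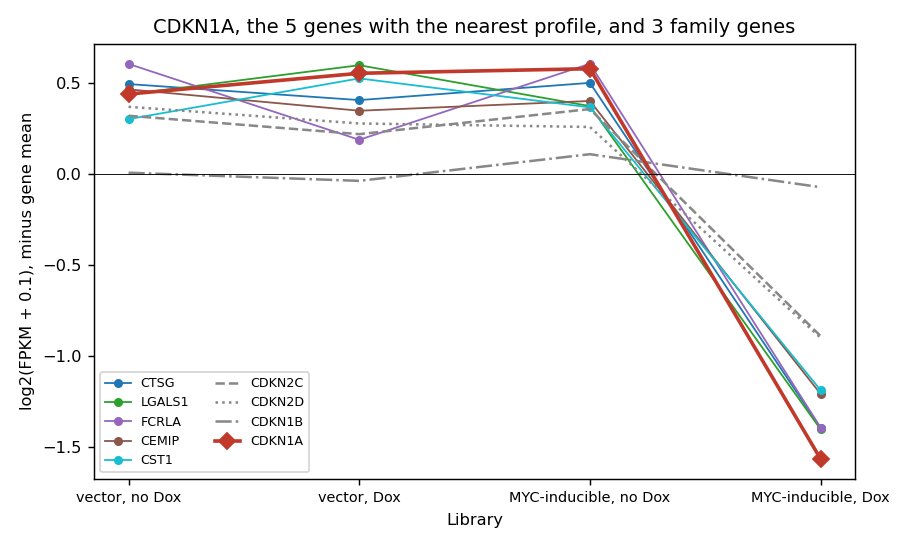
Profiles of CDKN1A, the 5 genes nearest to it and 3 other members over the 4 libraries, as log2(FPKM + 0.1) minus the mean of the gene. CDKN1A and the nearest genes are all low in induced cells, CDKN2C and CDKN2D drop less, and CDKN1B is nearly level.

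The other genes of the pathway were taken from 6 lists, whose median changes upon induction lay between -0.09 and 0.16. The median was -0.98 for the family, picked with the fall of CDKN1A known, and -0.72 for the 8 melanocyte markers. Between the lines with Dox these medians were -0.94 and -0.45. A fall was therefore not particular to the family. Over all genes, 8.85% fell and 5.9% rose in the MYC-inducible line, and the small counts per list are given beside these shares as a description. Of 12 CDKs and cyclins, 11 passed the filter, and 1 fell and 0 rose in the MYC-inducible line. The gene that fell was CDK2, from 221 to 139 FPKM (log2 change -0.67). CDK2 overlaps PMEL on the other strand, a melanocyte gene at 6178 FPKM before and 3394 FPKM after induction, and the part of shared reads in the value of CDK2 was not tested. CDK6 changed by 0.58, from 3.27 to 4.94 FPKM. The ratio of these values is 1.51, and it was under the 1.5-fold limit only through the pseudocount of 0.1, so the count of 0 that rose rests on this choice. CDK4 changed by 0.07. Of 10 pocket proteins and E2F factors, 9 passed the filter, and RB1, the pocket protein that CDK4 and CDK6 phosphorylate, was the 1 that fell, from 6.94 to 4.13 FPKM. RB1 overlaps LPAR6 and RCBTB2 in the annotation, and the part of shared reads in its value was not tested either. None of 15 S-phase and proliferation genes rose or fell, and their changes lay between -0.31 and 0.23 with a median of -0.08.

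Of 11 factors that turn CDK inhibitors over, 1 rose and 0 fell in the MYC-inducible line, beside 5.9% and 8.85% of all genes. The factor that rose was SKP2, the F-box protein that marks p27 for destruction, at 7.99 FPKM before and 12.2 FPKM after induction (log2 change 0.60). SKP2 was close to the 1.5-fold limit, with a counting error of 0.053, and its change was 0.55, short of the limit, when libraries were rescaled to the same sum. SKP2 also overlaps NADK2 in the annotation, and the part of shared reads was not tested. Of 17 regulators of the CDKN genes, 16 passed the filter, and 1 rose and 2 fell, again beside 5.9% and 8.85% of all genes. TFAP4, a MYC target that represses CDKN1A, was the regulator that rose, with 8.67 FPKM before and 13.7 FPKM after induction (log2 change 0.65). CBX7, a Polycomb protein that represses CDKN2A, fell from 5.70 to 3.29 FPKM (-0.78), and TBX2, a repressor of CDKN genes, fell from 20.4 to 13.5 FPKM (-0.60). ZBTB17 changed by 0.07. In vector cells 0 genes of the lists of CDKs and cyclins, pocket proteins and E2Fs, S-phase genes, turnover factors and regulators rose or fell, and between the untreated lines 0 genes of any of these lists did. Over all genes, 0.709% rose and 0.44% fell in vector cells. Between the untreated lines 0.592% of all genes were higher in the MYC-inducible line and 0.287% were lower. Beside shares this low, nothing about the lists is read from counts of 0.

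**Figure D5:**
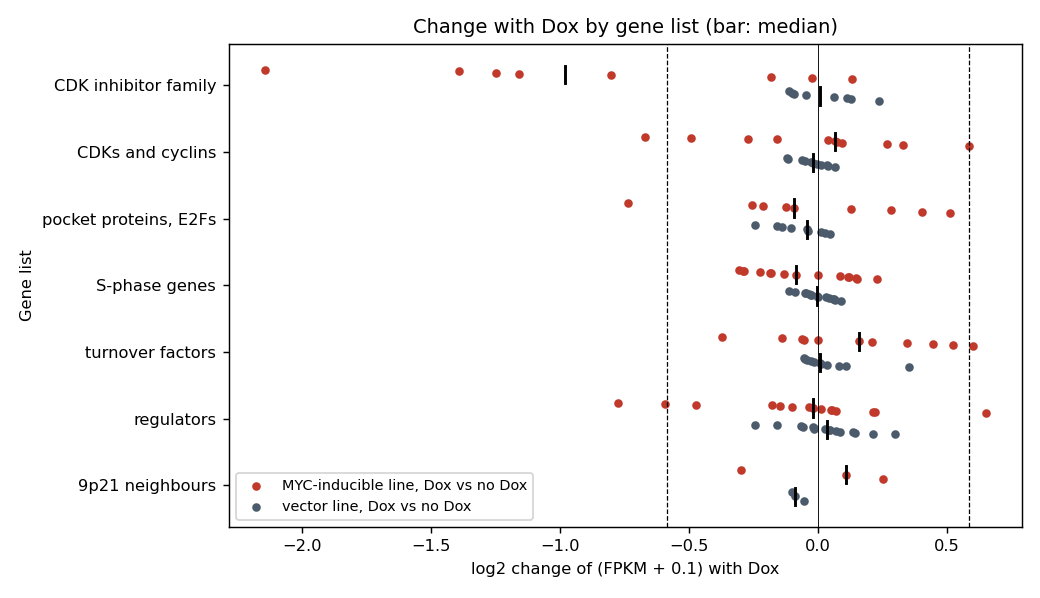
Change of log2(FPKM + 0.1) with Dox for the members and for 6 gene lists, with 1 point per gene that passed the filter, the MYC-inducible line in red, the vector line in dark grey, a bar at the median and dashed lines at 1.5-fold. In the MYC-inducible line the list medians lie between -0.09 and 0.16 and the family median is -0.98. The family was picked with the fall of CDKN1A known, so nothing is read from this difference.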

How the data were processed

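RNA-Seq of total RNA from 4 cultures of SK-MEL-28 cells was used, 1 library per condition. The authors deposited 1 table of FPKM values per gene symbol. The submitters' processing notes name TopHat2 2.0.14, Cufflinks and the build hg19 (GRCh37) without their roles, and the annotation and the use of strand are not given in the sources used here. The table held 27031 rows with gene names, and 1 row without one was left out. Rows of the 609 symbols with several rows were summed, and each member had 1 row. Because FPKM values are not counts and each condition has 1 library, no model was fitted and no test of conditions was made.

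Changes were differences of log2(FPKM + 0.1), called at 1.5-fold where the 4 values averaged 1 FPKM or more. The pseudocount understates the change of low genes. Relative depth came from the commonest ratio between values under 0.05 FPKM. Absolute depth came from 146 genes that have 1 annotated transcript, 1500 bases or longer, whose low values were whole multiples, up to 12 with a tolerance of 1.2%, of 1 step. Such steps were found for 54.8% of 2806 low genes, and the quartiles of the depth estimate were 32800000 and 40800000 fragments. Counting intervals (95%) assume Poisson sampling and the canonical transcript length of GENCODE release 44 on GRCh37. A withheld item and the results that need it are not reported here. Members and gene lists were chosen with earlier results of these data known. The text names the 8 members, MYC, up to 4 genes past 1.5-fold of each list, ordered by size of change, and the 5 genes nearest to CDKN1A. Other list genes (CDK4, CDK6, ZBTB17, PMEL, the markers KRT5 and EPCAM and the neighbours at the CDKN2A locus) were named after their values were seen. Alternatives were other pseudocounts, filters, scalings and thresholds, and the row with the highest mean in place of summed rows. The reference of 3 libraries was chosen after seeing the data. Calculations were tested on simulated data. Scripts ran in Python 3.11.15 with pandas 2.3.3 and numpy 2.4.6, and plots were drawn with matplotlib 3.10.9.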

Additional observations from a re-analysis of the deposited data

Results flagged for a closer look

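With Dox, the change of 3 members had opposite signs in MYC-inducible and vector cells, each condition being a single library, so no test of this difference was made. CDKN1A had a log2 change of -2.14 in MYC-inducible cells but 0.11 in vector cells. CDKN2B had -0.80 in the former and 0.13 in the latter. For CDKN3 the values were -0.021 and 0.062. The counting intervals held 0 for all 3 members in vector cells, and for CDKN3 also in MYC-inducible cells. For these 3 members no movement beyond counting error was therefore seen in vector cells.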

How the results depend on the processing

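No paired analysis was possible because a condition consists of a single library. Of 256 recalculated changes of members, 252 moved by less than their counting interval and 4 moved further, all of them under a pseudocount of 1. The 252 include recalculations that could not move at all. A filter does not touch the change of a member, and the choice of row does not either, since each member had 1 row. Of the 256, 2 changed sign, both for CDKN3, and 0 of these were past 1.5-fold. With a pseudocount of 1, CDKN1C changed by -0.87 in the MYC-inducible line and by -0.58 between the lines with Dox, the latter short of 1.5-fold. The change of CDKN1A in the MYC-inducible line was -1.87 with a pseudocount of 1 and lay between -2.19 and -1.87 over all alternatives. With a mean of at least 5 FPKM, which leaves out CDKN1C and CDKN2B, 3 of 6 members fell past 1.5-fold in the MYC-inducible line (7.35% of all genes) and 3 between the lines with Dox (7.63%). At 2-fold 4 members passed in the MYC-inducible line, without CDKN2B (2.05% of all genes), and 3 between the lines with Dox, without CDKN2B and CDKN1C (2.07%). Set against the mean of the other 3 libraries, a choice made after seeing the data, 5 members fell past 1.5-fold (8.39% of all genes). The same 5 were at least 1.5-fold below the lowest of these 3 libraries. This count was therefore nearly fixed in advance, and nothing is read from it. After rescaling to the same sum, 0 turnover factors were past 1.5-fold, SKP2 being lost. At 2-fold the counts past the threshold in the MYC-inducible line were 0 for the CDKs and cyclins, 0 for the pocket proteins and E2Fs, 0 for the turnover factors and 0 for the regulators. Over all genes, 658 rose and 986 fell upon induction, against 1138 and 1748 when no filter was used, 436 and 549 among genes averaging 5 FPKM or more, and 117 and 228 at 2-fold. The depth limits CDKN1C most, whose change had a counting error of 0.218.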
